A study of Mus musculus with 33 samples.

Results

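The tachykinin system was followed in the hypothalamus of female mice through 4 genes, chosen by name: *Tac1* and *Tac2*, which encode the peptide precursors, and *Tacr1* and *Tacr3*, which encode receptors. They are 4 of the 41565 named entries of the deposited expression table. Bulk RNA-seq had been made from the posterior hypothalamus (PH), which contains the arcuate nucleus, and from the preoptic area (POA), in 33 libraries. All mice were WT C57BL/6 females, adults of 3–4 months when the ovaries were removed on both sides (ovariectomy, OVX). The PH libraries comprise 4 from the intact group, killed in diestrus, 6 from 14 days after OVX and 6 from 4 months after OVX. The POA libraries comprise 5 from the intact group and 6 from each time after OVX. By the study's methods both regions were taken from the females of a group, and the labels do not tie a PH library to a POA library. The titles call the controls sham, whereas the study's methods and another label call them intact. One POA library carries only "14" in its group label, and its title places it at 14 days after OVX. No intact group of the age of the 4-month mice was analyzed here, so time after OVX and age cannot be told apart. The labels do not say whether the libraries of a group came from separate mice, so *P* values measure the spread between libraries. They put each group into 2 batches of 2 or 3 libraries, without saying what the batches are.

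Tachykinins are short peptides that are cut from larger precursors, amidated at the carboxy terminus and released by neurons. *Tac1* encodes substance P, the preferred ligand of the receptor encoded by *Tacr1*, and neurokinin A, whereas *Tac2* encodes neurokinin B (NKB), the preferred ligand of the receptor encoded by *Tacr3*. Arcuate KNDy neurons make kisspeptin, NKB and dynorphin, drive the pulses of gonadotropin-releasing hormone and are restrained by estradiol, and blocking the NKB receptor relieves hot flashes.

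The coding sequences of the 3 main peptides are given because they show what the precursor transcripts have in common: each peptide ends in Phe-X-Gly-Leu-Met, the core that tachykinin receptors recognize. They were read from GENCODE M39 transcripts on GRCm39, each lies in an exon on the + strand, and capitals mark the codons of the shared ending. Substance P is encoded at chr6:7556732-7556764, in 14 of 15 coding transcripts of *Tac1*. Neurokinin A is encoded at chr6:7559101-7559130, in 12 of these 15, and NKB at chr10:127564985-127565014, in 6 of 6 coding transcripts of *Tac2*. The deposited value of *Tac1* is 1 number per library, so the transcripts with and without a given peptide were not separated.
substance P: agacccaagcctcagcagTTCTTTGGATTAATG
neurokinin A: cataaaacagattccTTTGTTGGACTAATG
neurokinin B: gacatgcacgacttcTTTGTGGGACTTATG

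In the same annotation, *Tac1* spans chr6:7554120-7565834, *Tac2* chr10:127560347-127567638 and *Tacr3* chr3:134534755-134640340, with no overlapping gene. *Tacr1*, at chr6:82379278-82537085, overlaps the noncoding genes *Gm67143* on the same strand and *Gm67330* on the other strand. The library kit keeps the strand, but the strand setting of the quantification is not given in the sources used here, so reads of these genes may not be separable from *Tacr1*.

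The deposited values are a normalized signal on a linear scale, not counts, and their sums per library, 44.5 to 72.9 when expressed in megaunits, are not read totals, so the depth is unknown. The table has no 0, and unexpressed genes sit at a floor of 22.1. The 4 genes exceeded 2 times the floor (44.2) in every library of both regions. Values are not per length, so levels were compared only within a gene. A set of 100 genes at the floor followed 1 component across the libraries, with 83.5% of its variation between the regions, a pattern that subtracting a component would give, so levels were compared only within a region. Log2 changes were fitted with limma on the 3 groups of a region and the first surrogate variable (SV1), an estimate of unwanted variation. Calls were made where the *P* adjusted over all genes tested was under 0.05. PH 14-day replicate 5 stood apart from the other PH libraries on SV1, at 0.79 against −0.31 to 0.19.

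None of the 4 genes was called by limma in any of the 24 comparisons between groups. The share of all genes called was 0% in the PH at 14 days, 0.0319% in the PH at 4 months, 0.00468% in the POA at 14 days and 0.0937% in the POA at 4 months, each against intact, so calls were rare throughout. Between 4 months and 14 days it was 0.0091% for the PH and 0.0281% for the POA. At an unadjusted *P* under 0.05, *Tac2* alone among the 4 passed, in 3 of the 24 comparisons, which were the PH at both times and the POA at 4 months. The shares of all genes with such a *P* against intact were 3.04% in the PH at 14 days, 6.07% at 4 months, 6.14% in the POA at 14 days and 8.5% at 4 months. The comparisons of both OVX groups with intact share the intact libraries.

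*Tac2*, the NKB precursor, had higher mean values after OVX in the PH and lower ones in the POA, without passing the adjusted test. In the PH, the *Tac2* values of the intact libraries were 902, 600, 1054 and 840. The 14-day libraries had a lowest value of 1011, a median of 1111 and a highest value of 1578. At 4 months, the lowest, median and highest values were 958, 1158 and 1309. At each time, 5 of the 6 OVX libraries exceeded every intact library and the remaining one lay below intact replicate 3, so the groups overlapped by 1 library. The group means were 849 ± 189 (SD, n = 4) for intact mice, then 1240 ± 251 (SD, n = 6) and 1159 ± 129 (SD, n = 6) for the 14-day and 4-month groups.

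**Figure D1:**
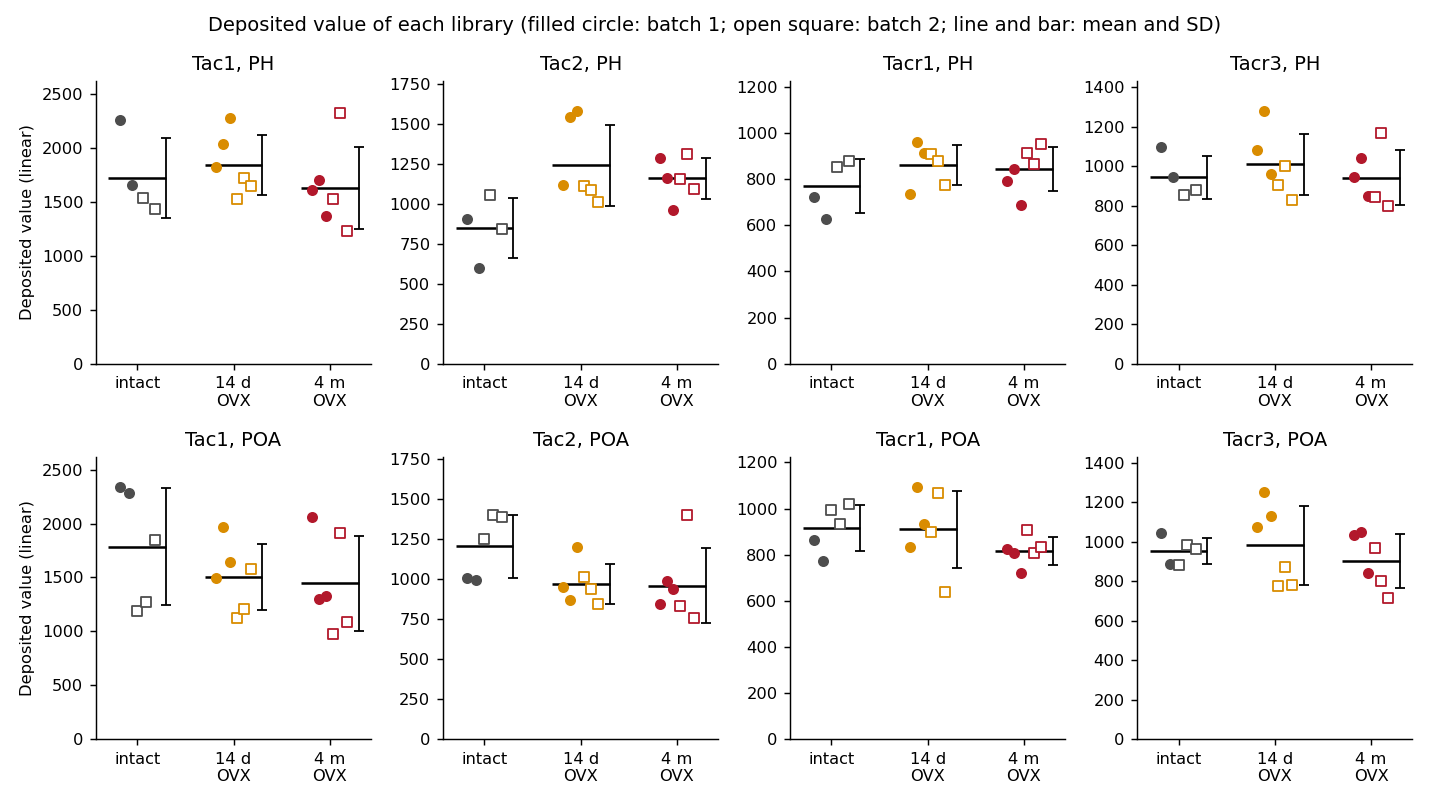
Deposited value (linear, unitless) of *Tac1*, *Tac2*, *Tacr1* and *Tacr3* in each PH library (top) and POA library (bottom) of the intact, 14-day OVX and 4-month OVX groups; filled circles are batch 1, open squares batch 2, and lines with bars are mean and SD. For *Tac2*, 5 of 6 libraries at each time after OVX lie above all 4 intact libraries in the PH, and 4 of 6 at 14 days and 5 of 6 at 4 months lie below all 5 intact libraries in the POA.

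The fitted change of *Tac2* in the PH was 0.58 on the log2 scale at 14 days (SE 0.16, 95% interval 0.24 to 0.91, a fold of 1.49). Its unadjusted *P* of 0.00183 ranked 18 among the 21976 genes tested, and the adjusted *P* was 0.9998. At 4 months the log2 change was 0.47 (SE 0.15, 95% interval 0.14 to 0.79, a fold of 1.38), with an unadjusted *P* of 0.00706, a rank of 245 and an adjusted *P* of 0.617. The 14-day and 4-month levels did not differ beyond their spread (log2 difference −0.11, 95% interval −0.41 to 0.20). In a two-sided exact permutation test of the mean log2 values, 14 days and 4 months each gave *P* = 0.00952 over 210 splits, where the smallest possible is 0.00476, and 0.114 after adjustment over 24 tests. In bulk tissue, a change in the number of *Tac2* cells cannot be told apart from a change in their RNA per cell.

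The size of the *Tac2* change in the PH differed between the batches. In batch 1, the log2 change was 0.92 (SE 0.21) at 14 days and 0.61 (SE 0.21) at 4 months. In batch 2, it was 0.18 (SE 0.17) at 14 days and 0.33 (SE 0.17) at 4 months. Both batches thus had positive changes at both times, and the difference between batches was not tested. When libraries were exchanged within batches alone, the exact permutation *P* values were 0.02 at 14 days and 0.01 at 4 months, over 100 splits. The intact library with the lowest *Tac2* value, replicate 2, mattered most: without it, the log2 change fell to 0.42 at 14 days and to 0.31 at 4 months. Without PH 14-day replicate 5, the changes were 0.58 and 0.48.

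In the POA, *Tac2* values of the intact libraries were 1006, 995, 1251, 1400 and 1387. The lowest, median and highest values were 850, 946 and 1200 at 14 days, and 759, 891 and 1404 at 4 months. At 14 days, 4 of 6 libraries lay below every intact library. At 4 months, 5 of 6 did, whereas replicate 5 had the highest value of all POA libraries. The log2 change was −0.29 at 14 days (SE 0.14, 95% interval −0.59 to 0.0026, adjusted *P* = 0.807 by limma). It was −0.33 at 4 months (SE 0.14, 95% interval −0.62 to −0.03, adjusted *P* = 0.527 by limma). Exact permutation *P* values were 0.0433 at 14 days and 0.0823 at 4 months, and 0.346 and 0.395 after adjustment over 24 tests. The 2 OVX times did not differ beyond their spread (log2 difference −0.03, 95% interval −0.31 to 0.25).

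The change of *Tac2* in the POA was larger in batch 2, where it was −0.53 (SE 0.19) at 14 days and −0.48 (SE 0.19) at 4 months. In batch 1, the changes were −0.0033 (SE 0.13) and −0.12 (SE 0.13). Without POA 4-month replicate 5, the 4-month change was −0.46, with an adjusted *P* of 0.198 by limma.

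An effect in 1 region is no test of a difference between regions. The difference of the changes, PH minus POA, was therefore tested for each of the 4 genes in a fit of all 33 libraries. These were taken as independent, although regions may share mice. For *Tac2*, which had opposite signs in the regions, it was 0.88 on the log2 scale at 14 days (SE 0.21, 95% interval 0.44 to 1.31). Its unadjusted *P* of 2.93e-04 by limma ranked 4 among 22120 genes. At 4 months it was 0.80 (SE 0.22, 95% interval 0.36 to 1.23), with an unadjusted *P* of 8.40e-04 and a rank of 14. Neither was called by limma (adjusted *P* = 0.99995 and 0.9998). Of all genes, 0.00452% and 0.00904% were called, and 2.99% and 3.61% had an unadjusted *P* under 0.05. With same-numbered libraries of a group as a block across the regions (estimated correlation 0.11), the differences were 0.87 and 0.79. Leaving out each library in turn, the *Tac2* difference ranged from 0.72 to 0.98 at 14 days and from 0.64 to 0.92 at 4 months. For *Tac1*, *Tacr1* and *Tacr3*, the differences lay between 0.03 (*Tacr3* at 14 days) and 0.29 (*Tac1* at 4 months). Every 95% interval of these genes included 0.

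**Figure D2:**
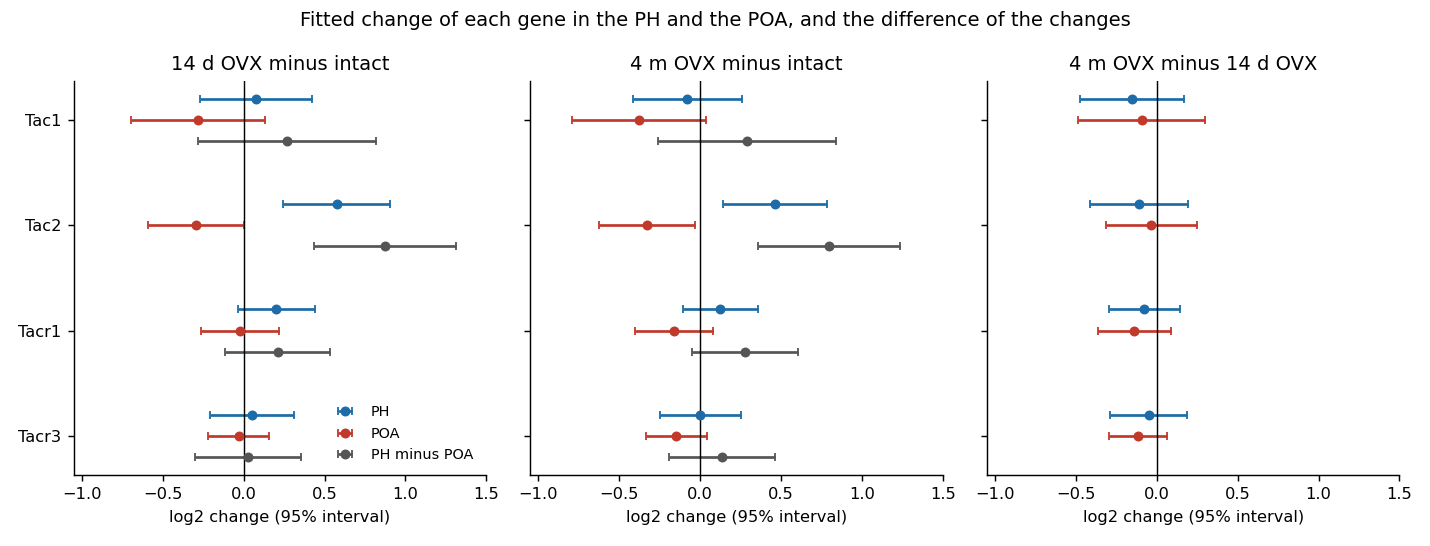
Fitted log2 change (points) with its 95% interval (bars) for each gene, 14 days against intact (left), 4 months against intact (middle) and 4 months against 14 days (right), in the PH (blue), the POA (red) and, for the first pair of panels, as PH minus POA (gray). The *Tac2* intervals of PH minus POA, 0.44 to 1.31 and 0.36 to 1.23, do not include 0 before adjustment, and the intervals of *Tac1*, *Tacr1* and *Tacr3* include 0 in every panel.

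*Tac1*, the precursor of substance P and neurokinin A, varied more within groups than between them. In the PH, the intact libraries had *Tac1* values of 2257, 1657, 1537 and 1433. The lowest, median and highest values were 1524, 1770 and 2279 at 14 days, and 1233, 1568 and 2324 at 4 months. The ranges of the 3 groups overlapped almost entirely. The log2 change was 0.07 at 14 days (SE 0.16, 95% interval −0.27 to 0.42) and −0.08 at 4 months (SE 0.16, 95% interval −0.41 to 0.26).

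In the POA, *Tac1* of the intact libraries fell into high and low values, with 2338 and 2286 in batch 1 and 1192, 1271 and 1843 in batch 2. The lowest, median and highest values were 1125, 1535 and 1970 at 14 days, and 980, 1317 and 2065 at 4 months. The OVX libraries spread over the whole range of the intact batch 2 libraries, and none reached the intact libraries of batch 1. The log2 change was −0.28 at 14 days (SE 0.19, 95% interval −0.70 to 0.13, adjusted *P* = 0.855 by limma) and −0.38 at 4 months (SE 0.20, 95% interval −0.79 to 0.04, adjusted *P* = 0.639 by limma). Within batch 1 these changes were −0.45 and −0.60, and within batch 2 they were −0.13 and −0.15. Striatal neurons and the medial habenula also make *Tac1*, so genes of these neighbors were read beside it. The summed value of 8 striatum markers in the POA ranged from 10724 to 16740 in intact mice, from 9613 to 13192 at 14 days and from 10022 to 16568 at 4 months. Of these 8, 0 had a positive log2 change at 14 days (median −0.31) and 1 did at 4 months (median −0.17), with no call. The sum of 5 medial habenula markers ranged from 1680 to 3995, from 1300 to 4651 and from 1296 to 3440. Of these 5, 1 had a positive log2 change at each time (medians −0.09 and −0.32), with no call. All 8 striatum markers and 4 of 5 medial habenula markers exceeded 2 times the floor in every POA library. The part of either list in the *Tac1* values was not tested.

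*Tacr1*, the receptor that prefers substance P, had PH values of 724, 627, 851 and 878 in the intact libraries. The lowest, median and highest values were 734, 893 and 962 at 14 days, and 686, 856 and 952 at 4 months. At 14 days 4 of 6 libraries lay above the intact range, and at 4 months 2 of 6 did. The log2 change was 0.20 at 14 days (SE 0.11, 95% interval −0.04 to 0.44) and 0.13 at 4 months (SE 0.11, 95% interval −0.11 to 0.36). Within batch 2 the 14-day change was −0.021, against 0.36 within batch 1.

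In the POA, *Tacr1* values were 865, 772, 995, 932 and 1019 in intact mice. At 14 days they spanned 637 to 1093, with a median of 917, and at 4 months only 720 to 907, with a median of 815. The 14-day group contained both the lowest and the highest *Tacr1* value of the POA. The log2 change was −0.02 at 14 days (SE 0.11, 95% interval −0.26 to 0.22) and −0.16 at 4 months (SE 0.11, 95% interval −0.40 to 0.08).

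*Tacr3*, the NKB receptor gene, had fitted log2 changes between −0.15 and 0.05 against intact. In the PH, its values were 1099, 947, 854 and 878 in intact mice. They ranged from 831 to 1278 at 14 days, with a median of 980, and from 801 to 1167 at 4 months, with a median of 897. The 3 PH groups overlapped broadly, with log2 changes of 0.05 at 14 days (SE 0.12, 95% interval −0.21 to 0.31) and 0.0013 at 4 months (SE 0.12, 95% interval −0.25 to 0.25). In the POA, the intact libraries were close together, at 1043, 890, 885, 983 and 967. The *Tacr3* range widened to 775 to 1254 at 14 days (median 974) and 715 to 1053 at 4 months (median 907). The 14-day libraries of the POA lay on both sides of the intact ones, 3 of 6 above and 3 of 6 below all 5. The log2 change was −0.03 at 14 days (SE 0.09, 95% interval −0.22 to 0.16) and −0.15 at 4 months (SE 0.09, 95% interval −0.34 to 0.04). The split at 14 days followed the batches, with a change of 0.26 (SE 0.13) in batch 1 and −0.22 (SE 0.12) in batch 2.

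**Figure D3:**
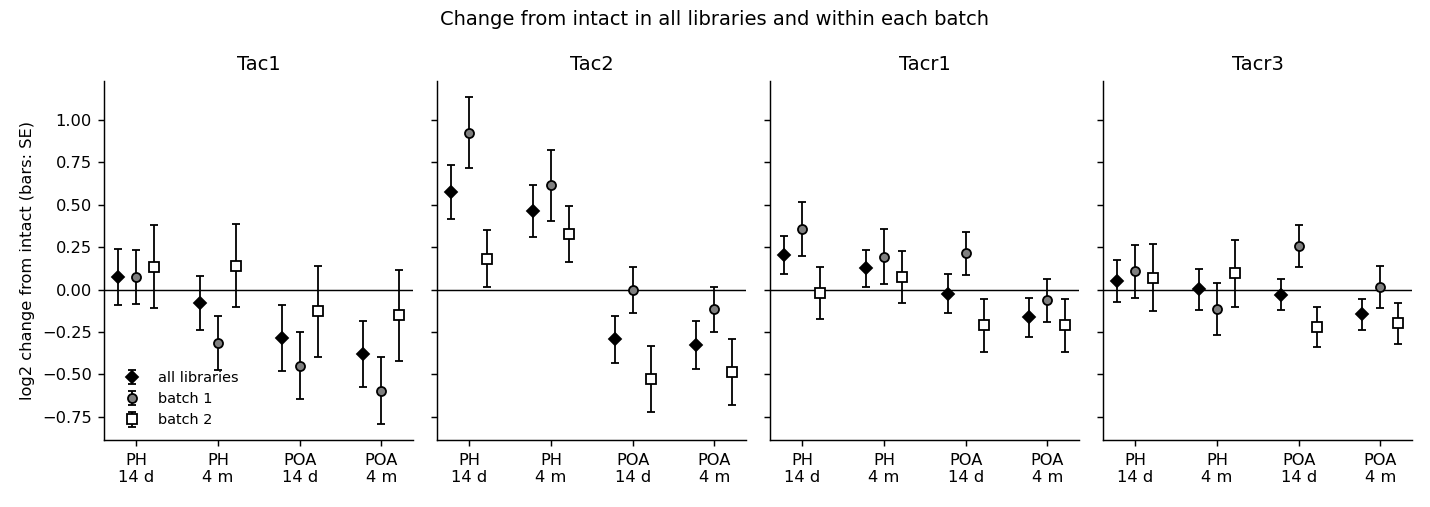
Log2 change from intact of each gene in the PH and the POA at 14 days (14 d) and 4 months (4 m), from all libraries with SV1 (diamonds) and within batch 1 (circles) and batch 2 (squares) without a covariate; bars are SE. *Tac2* in the PH is above 0 in both batches at both times, at 0.92 against 0.18 at 14 days, and *Tacr3* in the POA at 14 days is 0.26 in batch 1 and −0.22 in batch 2.

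Of the other tachykinin genes, *Tac4*, which encodes hemokinin, exceeded 44.2 in no library, and *Tacr2*, the receptor that prefers neurokinin A, did so in 2 libraries, both from the PH of intact mice. Neither was tested.

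Neuropeptide precursors need convertases and amidation before they can act. Of 10 peptide processing genes none was called in any comparison. Their median log2 change in the PH was 0.05 at 14 days and 0.01 at 4 months, and the POA medians were −0.04 and −0.07, against medians of all genes tested between −0.01 and −0.0018. *Pam*, the enzyme that amidates the carboxy terminus of tachykinins, had a log2 change of 0.26 (SE 0.10) at 14 days and 0.20 (SE 0.09) at 4 months within the PH, with adjusted *P* = 0.9998 and 0.805 by limma. *Pcsk1*, a prohormone convertase, had a log2 change of 0.32 (SE 0.15) in the PH at 14 days, and *Chgb*, a granin of dense-core vesicles, one of 0.17 (SE 0.12) in the PH at 4 months. In the POA, *Vgf*, a secreted granin-family precursor, had the smallest *P* of the list at 4 months, with a log2 change of −0.45 (SE 0.10, adjusted *P* = 0.134 by limma), and it stood at −0.31 at 14 days. *Scg2*, another granin, followed at 4 months with −0.23, and *Cpe*, which trims basic residues, was at −0.08 at 14 days.

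None of 7 peptide-degrading enzymes was called. Their median log2 change at 14 days and 4 months was 0.03 and −0.10 for the PH, and −0.09 and −0.12 for the POA. The named ones, all uncalled, were *Thop1* (−0.14 at both times in the PH, −0.16 in the POA at 4 months), *Dpp4* (0.24 in the PH at 14 days), *Ece1*, which cleaves substance P in endosomes (−0.23 in the PH at 4 months, −0.18 in the POA at 14 days), and *Prep* (−0.09 in the POA at 14 days).

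Tachykinin receptors couple mainly to Gq and phospholipase C. None of 14 coupling genes was called, and their median log2 change lay between −0.05 and 0.03 in the 4 comparisons with intact. *Prkca*, a calcium-dependent protein kinase C, had the largest change among those named, 0.37 (SE 0.17) in the PH at 4 months. *Gnaq*, the Gq alpha subunit, was at 0.12 (SE 0.07) there. *Gnas* was at 0.13 and *Plcb4* at −0.18 in the PH at 14 days, and *Plcb1* at −0.15 in the POA at 14 days.

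Among 14 genes of KNDy and arcuate kisspeptin neurons, 13 could be tested. *Kiss1* itself lay near the floor, between 21.9 and 46.3, and exceeded 44.2 in 1 library. *Gm28040*, an annotated gene that overlaps *Kiss1*, has 2 rows under 1 name in the table, of which the expressed one was used. In the PH, it lay between 37.1 and 40.8 in the 4 intact libraries, under the 44.2 limit, and passed the filter through the OVX libraries, which fixes a difference in that direction. Its fitted log2 change there, against a group near the floor, was 1.53 (SE 0.26, adjusted *P* = 0.287 by limma, not called) at 14 days and 1.87 (SE 0.25, adjusted *P* = 0.00357 by limma, called) at 4 months. In the POA, every library exceeded the limit, with log2 values from 6.46 to 7.58 in intact mice. The 14-day values ran from 5.50, just above the limit, to 6.30. *Gm28040* changed there by −1.20 (SE 0.16, adjusted *P* = 0.0103 by limma, called) at 14 days and by −0.80 (SE 0.16, adjusted *P* = 0.0723 by limma, not called) at 4 months. It was the only gene called in the pathway lists, and it was also called in PH minus POA at both times, which rests on the same PH intact values. *Tac2* had the sign of *Gm28040* in the POA at both times, with smaller changes. The PH direction of *Gm28040* was fixed by the filter, so the signs are not compared there. *Pdyn*, the dynorphin precursor and a further KNDy gene, had log2 changes of 0.21 (SE 0.15) and 0.22 (SE 0.15) for the PH, and −0.37 (SE 0.25) and −0.41 (SE 0.25) for the POA, none of them called. *Esr1*, the estrogen receptor alpha gene, was at 0.39 (adjusted *P* = 0.9998 by limma) in the PH at 14 days. *Sox14*, a transcription factor gene, was at 0.46 (adjusted *P* = 0.680 by limma) in the PH at 4 months. *Pgr*, the progesterone receptor gene and an estrogen target, was at −0.16 at 14 days and −0.24 at 4 months (adjusted *P* = 0.199 by limma) in the POA. It was also lower in the PH, at −0.09 at 14 days and −0.22 at 4 months (adjusted *P* = 0.712 by limma).

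Markers of neighboring nuclei were read beside *Tac2*, since a dissection can take in more or less of the arcuate nucleus. In the PH, 9 of 9 markers of other arcuate neurons exceeded 44.2 in every library, and their sum ranged from 6303 to 6643 in intact mice, from 6182 to 7590 at 14 days and from 6208 to 10437 at 4 months. At each time, 6 of the 9 had positive log2 changes (medians 0.09 and 0.11), and none of the 9 was called. Their changes ran from −0.57 (*Agrp*, SE 0.19) to 0.45 (*Pomc*, SE 0.30) at 14 days. At 4 months they ran from −0.52 (*Agrp*, SE 0.18) to 0.56 (*Cartpt*, SE 0.16). The sum of 4 ventromedial hypothalamus markers, one of which, *Sox14*, is also on the KNDy list, ranged from 879 to 923, from 1044 to 1712 and from 914 to 1698. All 4 ventromedial markers had positive log2 changes at both times, with a median of 0.32 and no call. In the POA as in the PH, 9 of 10 preoptic markers and 9 of 9 other arcuate markers exceeded 44.2 in every library. The ventromedial sum in the POA ranged from 980 to 1290, from 948 to 1220 and from 818 to 1154. Of the 9 other arcuate markers, 3 had positive changes in the POA at 14 days (median −0.07) and 1 at 4 months (median −0.30). Of the 4 ventromedial markers, 2 had positive changes in the POA at 14 days (median −0.05) and 1 at 4 months (median −0.19). The medians of both lists had the sign of the *Tac2* change in both regions at both times, but single markers did not all have it. At 14 days in the PH, 2 of the 9 arcuate markers had an unadjusted *P* under 0.05 by limma. These were *Agrp* (−0.57) and *Npy* (−0.37), both opposite in sign to *Tac2*. At 4 months 2 also did, *Agrp* (−0.52) with the opposite sign and *Cartpt* (0.56) with the same sign. The part of either list in the *Tac2* change was not tested. In PH minus POA, all 4 ventromedial markers had positive differences at both times (medians 0.40 and 0.53), with no call. Of the 9 other arcuate markers, 5 had positive differences at 14 days (median 0.01) and 6 at 4 months (median 0.33), with no call. The arcuate differences ran from −1.90 (*Pomc*, SE 0.82) to 0.69 (*Cartpt*, SE 0.24) at 14 days. At 4 months they ran from −0.28 (*Agrp*, SE 0.26) to 1.23 (*Slc6a3*, SE 0.87), with *Cartpt* at 1.13 (SE 0.24). Among all genes, *Cartpt* ranked 67 at 14 days and 3 at 4 months, and *Pomc*, of opposite sign, ranked 345 at 14 days. Because of the component noted above, these markers do not test whether a library came from the labelled region.

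Across libraries, 22 relations among the 4 genes and with KNDy genes were computed, and 2 had an adjusted *P* of Pearson's *r* under 0.05. *Tac1* and *Tacr3* varied together over the 16 PH libraries (*r* = 0.79, permutation *P* = 2.50e-04, adjusted *P* = 0.0055; rho = 0.86, permutation *P* = 4.00e-05, adjusted *P* = 8.80e-04). Without the 2 libraries farthest from the *Tac1* median, *r* was 0.85. It was 0.61 in batch 1 and 0.90 in batch 2, and 0.70 after centering on group and batch. Over the 17 POA libraries, the same pair had *r* = 0.39 (permutation *P* = 0.121, adjusted *P* = 0.327) and rho = 0.42 (permutation *P* = 0.0948, adjusted *P* = 0.261), with *r* = 0.44 without the 2 farthest libraries and 0.12 and 0.018 within the batches.

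*Tac2* and *Tacr1* in the PH had *r* = 0.69 (permutation *P* = 0.00303, adjusted *P* = 0.0333) but rho = 0.56 (permutation *P* = 0.0259, adjusted *P* = 0.143). Without the 2 libraries farthest from the *Tac2* median, *r* was 0.45. It was 0.93 in batch 1, 0.20 in batch 2 and 0.68 after centering on group and batch. This relation was thus much weaker in batch 2, and the difference between batches was not tested. The ligand and its preferred receptor, *Tac2* and *Tacr3*, had *r* = 0.36 (permutation *P* = 0.171, adjusted *P* = 0.346) across the PH libraries and 0.08 (permutation *P* = 0.761, adjusted *P* = 0.882) across those of the POA. The rho values of this pair were 0.39 (permutation *P* = 0.138, adjusted *P* = 0.337) and 0.07 (permutation *P* = 0.803, adjusted *P* = 0.870), and without the 2 farthest libraries *r* was 0.55 and 0.21. Within batches 1 and 2, it was 0.36 and 0.54 for the PH and 0.015 and 0.48 for the POA. In the PH, *Gm28040* was lower in all 4 intact libraries (37.1 to 40.8) than in any OVX library (65.6 to 326), so no pooled correlation with *Tac2* is given there, and after centering on group and batch *r* was 0.19. In the POA, *Tac2* and *Gm28040* had *r* = 0.61 (permutation *P* = 0.00965, adjusted *P* = 0.0658) and rho = 0.50 (permutation *P* = 0.0431, adjusted *P* = 0.190). The *r* of this pair was 0.52 without the 2 farthest libraries, 0.43 and 0.63 within the batches, and 0.20 after centering.

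**Figure D4:**
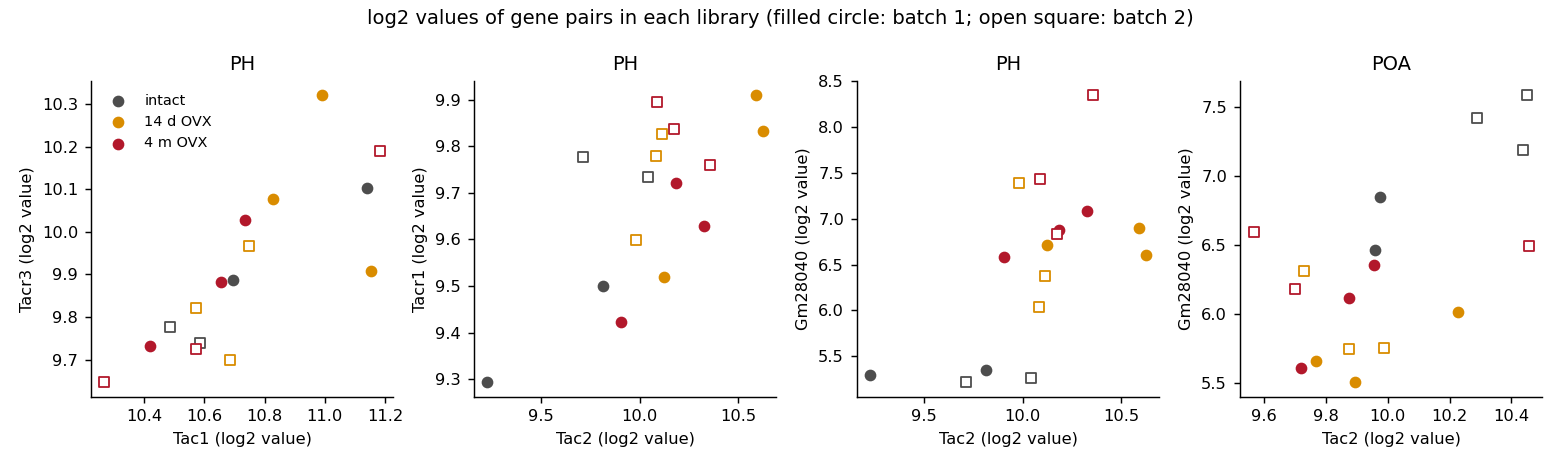
Log2 values of gene pairs in each library: *Tacr3* against *Tac1* and *Tacr1* against *Tac2* in the PH, and *Gm28040* (the expressed row) against *Tac2* in the PH and the POA; colors give the group, filled circles batch 1 and open squares batch 2. *Tac1* and *Tacr3* follow one line (*r* = 0.79), and the 4 intact libraries lie apart at the bottom for *Gm28040* in the PH.

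The protein-coding genes most like each member across the libraries of a region are given as a description, since all values of a library share its dissection and depth. For *Tac2* in the PH, the 5 highest *r* among 16111 genes were those of *Mxra7* (0.80), *Pde11a* (0.79), *Asb4* (0.77), *Pam* (0.76) and *Ehd4* (0.75). Within batches 1 and 2, *r* was 0.91 and 0.52 for *Mxra7*, 0.85 and 0.41 for *Pde11a*, and 0.92 and 0.78 for *Asb4*. It was 0.88 in each batch for *Pam*, and 0.78 and 0.65 for *Ehd4*. For these 5 genes, *r* with *Tac2* in the POA lay between −0.31 and 0.24, with 0.13 for *Pam*. In the POA, *Tac2* was most like *Tyw1* (0.83), *Zdhhc5*, *Dpf1*, *Rapsn* and *Ehd3* (0.78), and none of the 5 was the same gene as in the PH. For *Tac1*, *Poglut3* (0.90), *Cd36*, *Morn2*, *Dleu7* and *Aga* (0.86) led in the PH and *F2r* (0.90), *Cacna2d3*, *Pde7b*, *Rbm25* and *Kcnd2* (0.83) in the POA. For the 5 PH genes, *r* with *Tac1* in the POA lay between −0.13 and 0.38.

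Among the receptors, for *Tacr1*, *Sulf2* (0.79), *Pkm*, *Faim2*, *Slc12a5* and *Grid1* (0.74) led in the PH, with *r* from 0.43 to 0.60 in the POA. *Stk32b* (0.95), *Ubfd1*, *Dner*, *Zcchc18* and *Cntnap4* (0.90) led in the POA, with *r* from 0.23 to 0.54 in the PH. For *Tacr3*, *Prkacb* (0.86), *Qpct* (0.85), *Tmx4* (0.84) and *Klhl1* (0.83) were among the highest in the PH, and their *r* in the POA was 0.69 to 0.76. *Qpct* encodes glutaminyl cyclase, which forms pyroglutamate at the amino terminus of peptides. *Elovl5* (0.91), *Tmem65*, *Scfd1*, *Sdc2* and *Aftph* (0.88) led for *Tacr3* in the POA, with 0.46 to 0.73 in the PH.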

How the data were processed

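Total RNA of dissected, flash-frozen PH and POA tissue was made into stranded mRNA libraries. The authors used kallisto for pseudoalignment (mm39), tximport for gene summaries and DESeq2 for testing, and the submitters' processing notes name kallisto and DESeq2. The deposited values are a normalized signal on a linear scale, and the step that made them is not given in the sources used here. Over 100 genes at the floor, all libraries followed 1 component, and 83.5% of its variation lay between the regions.

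Here, log2 of the deposited signal was taken with no pseudocount. Rows with no gene name (1259) were dropped, and every column had a sample. Genes were tested when they reached 44.2 in at least 4 PH or 5 POA libraries (21976 and 21346 genes). The study's count test could not be used on this unit, so limma (version 3.58.1, R 4.3.3, statmod 1.5.0) was fitted with a trend and robust variances on the 3 groups and SV1, which was estimated in base R by iteratively reweighted surrogate variable analysis with 5 rounds. The Benjamini-Hochberg adjustment was used. PH minus POA was an interaction in 1 fit (22120 genes). The fits were tested on simulated data. Exact permutation tests were two-sided, and correlations used 100000 resamples, in Python 3.11.15 (scipy 1.17.1, numpy 2.4.6, pandas 2.3.3). Biopython 1.88 read the sequences and matplotlib 3.10.9 drew the plots. Depth is unknown, so no counting error is given.

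The members and lists were chosen with earlier results of these data known. Named genes were the 4 members, list genes that were called, the 2 list genes with the smallest *P* in each comparison with intact, and the 5 protein-coding genes with the highest *r* for each member and region. One gene that this rule names is not reported here. *Pdyn* was named beside *Tac2* as a KNDy gene, outside this rule, after its values were seen. The arcuate markers *Agrp*, *Npy*, *Pomc*, *Cartpt* and *Slc6a3* were likewise named after their values were seen. The alternatives tried were no covariate, batch in place of SV1, both together, the replicate number as a block, the 2 groups alone, single batches, a pseudocount of 100, no filter and each library left out in turn. The deviations of same-numbered libraries had median correlations of 0.0018 within the PH, −0.10 within the POA and 0.06 between regions. For libraries with different numbers, the medians were 0.01, 0.0032 and −0.0067. The numbers were not taken as pairs, although such values cannot exclude that same-numbered libraries of the regions share a mouse.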

Additional observations from a re-analysis of the deposited data

How the results depend on the processing

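Under 916 alternative values of the 32 changes and differences of changes, none was called, with adjusted *P* between 0.198 and 1.00, and 874 kept the direction. The sign of *Tac2* against intact and of PH minus POA for *Tac2* was the same under every alternative. The 42 values of opposite sign include 18 not made by leaving out a library, most of them near 0. Within batch 1, the log2 change was −0.11 for *Tacr3* in the PH at 4 months, and in the POA 0.21 for *Tacr1* and 0.26 for *Tacr3* at 14 days and 0.014 for *Tacr3* at 4 months. Within batch 2, it was −0.021 for *Tacr1* at 14 days and 0.14 for *Tac1* at 4 months in the PH. For 4 months against 14 days within batch 2, it was 0.0054 for *Tac1*, 0.15 for *Tac2*, 0.10 for *Tacr1* and 0.025 for *Tacr3* in the PH, and 0.043 for *Tac2* and 0.022 for *Tacr3* in the POA. *Tacr3* in the PH at 4 months was −0.0090 with batch in place of SV1 and without a covariate, and −0.0030 with both, and *Tacr3* in the POA at 14 days was 0.021 without a covariate. The cause was not tested.

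With the replicate number as a block, *Tac2* changed by 0.68 and 0.48 in the PH and by −0.26 and −0.29 in the POA at 14 days and 4 months, and PH minus POA was 0.87 and 0.79. The block turned the sign of *Tacr3* in the PH at 4 months (−0.0039) and of *Tacr1* in the POA at 14 days (0.018), and changed no call. The labels do not say whether the numbers pair the libraries.

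Leaving out each library in turn, the log2 change ranged across 0 for *Tac1* in the PH at 14 days (−0.0016 to 0.23) and 4 months (−0.19 to 0.049), for *Tacr3* in the PH at 14 days (−0.023 to 0.13), at 4 months (−0.067 to 0.060) and between these times (−0.11 to 0.025), for *Tacr1* (−0.10 to 0.11) and *Tacr3* (−0.11 to 0.013) in the POA at 14 days, for *Tac2* in the POA at 4 months against 14 days (−0.15 to 0.055) and for PH minus POA of *Tacr3* at 14 days (−0.043 to 0.093).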

Other observations

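No gene of the 18 lists of cell type and region markers was called by limma in the PH, the POA or PH minus POA. In the comparisons with intact within a region, the median log2 change farthest from 0 was that of the anterior pituitary genes. Over 4 genes tested, it was 2.12 in the POA at 14 days and −0.88 in the PH at 4 months, and their summed value reached 7151 in a POA library at 14 days, against at most 1771 in the intact POA libraries. The PH sum reached 4087 in an intact library, against at most 1034 (14 days) and 359 (4 months) after OVX. In the PH, 4 of 4 microglia markers had positive changes at both times, with medians of 0.09 and 0.20, and 3 of 3 endothelial markers did so, with medians of 0.26 and 0.28. In the POA, the microglia medians were 0.16 and 0.14 and the endothelial medians 0.09 and 0.15. Thalamus markers had medians of −0.22 and −0.05 for the PH, and 0.34 and 0.37 for the POA. In these comparisons with intact, the medians of the other lists lay between −0.49 and 0.32.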
